A study of Mus musculus with 12 samples.

Results

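The guanylate-binding proteins Gbp2 to Gbp9 are 8 mouse genes of a family of interferon-inducible GTPases, taken by gene name from a deposited table of 55322 genes. Their expression was compared in splenic type 2 conventional dendritic cells (cDC2) of 4 groups with 3 RNA-seq libraries each. CLP-cDC2 and CDP-cDC2 were donor-derived: CLPs or CDPs, the usual abbreviations of common lymphoid progenitors and common dendritic cell progenitors, were taken from wild-type CD45.2+ mice and injected into the bone marrow of B6.SJL (CD45.1+) recipients, and the genotype is given as WT. L-cDC2 and M-cDC2 came from Il7r-cre; Rosa26-lsl-tdTomato mice, in which a Cre driven by the Il7r gene, active in lymphoid progenitors and lymphocytes, switches on a red reporter that daughter cells keep. L-cDC2 were the tdTomato+ cells and M-cDC2 the tdTomato- cells, so these 2 groups were sorted by the reporter, which records past Cre activity and not a progenitor directly. The letters L and M are not spelled out. All 4 groups had received lipopolysaccharide (LPS) at 5 mg/kg into the peritoneum 4 days before isolation, so none was untreated. The study's protocols name C57BL/6J mice aged 7 to 8 weeks. The study asked how alike CLP-cDC2 and L-cDC2 are, and the comparisons here are of CLP-cDC2 with CDP-cDC2, of L-cDC2 with M-cDC2, and of the transfer with the reporter groups.

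Guanylate-binding proteins are large GTPases that assemble on membranes of bacteria and of vacuoles holding parasites, open them, and expose microbial products to inflammasomes. Several carry a lipid anchor added by prenylation enzymes, and their delivery to vacuoles needs the Atg8 conjugation machinery shared with autophagy. Interferon-gamma, made by NK cells and T cells, signals through the receptor subunits Ifngr1 and Ifngr2 and the kinases Jak1 and Jak2 to induce the genes, and type I interferon reaches many of the same genes through interferon regulatory factors. In mice the genes lie in a pair of clusters, and dendritic cells and macrophages express them after infection or LPS.

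Gbp2 (ENSMUSG00000028270), Gbp3 (ENSMUSG00000028268), Gbp5 (ENSMUSG00000105504) and Gbp7 (ENSMUSG00000040253) were listed on the plus strand of chromosome 3, and Gbp4 (ENSMUSG00000079363), Gbp6 (ENSMUSG00000104713), Gbp8 (ENSMUSG00000034438) and Gbp9 (ENSMUSG00000029298) on the minus strand of chromosome 5. All 8 were listed as protein-coding. As deposited, the chromosome 3 members ran in the order Gbp5, Gbp7, Gbp3 and Gbp2, with Gbp5 starting at 142199739 and Gbp2 ending at 142343769. The chromosome 5 members ran in the order Gbp8, Gbp9, Gbp4 and Gbp6, with Gbp8 starting at 105162016 and Gbp6 ending at 105441564. These positions do not match the GRCm38 annotation, and no header or label names their build. The listed exons of Gbp4, Gbp8 and Gbp9 overlap over 60 to 61 bases. Gbp6 shares 1726 exon bases, 29.0% of its length, with Gm43302, and Gbp7 shares 637 bases, 11.4%, with Gm43802.

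RefSeq windows before the gene start, in GRCm38.p6, were found for 4 of the 8 members, all on chromosome 3. They are shown because interferon acts through short promoter elements; Gbp2 and Gbp5 were called in at least 1 comparison below, and Gbp3 and Gbp7 in none. The windows are chr3:142620413-142620662 for Gbp2, chr3:142559794-142560043 for Gbp3, chr3:142496684-142496933 for Gbp5 and chr3:142530086-142530335 for Gbp7, all on the plus strand and each ending at the base before the listed start. Capitals mark matches on either strand to GAAA, any 2 bases and GAAA, the core of the interferon-stimulated response element (ISRE), which appears here as its reverse complement, and to TTC, any 3 bases and GAA, the core of the gamma-activated site (GAS), whose pattern is the same on both strands. In Gbp3 a pair of overlapping ISRE cores forms one run of capitals.

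Gbp2: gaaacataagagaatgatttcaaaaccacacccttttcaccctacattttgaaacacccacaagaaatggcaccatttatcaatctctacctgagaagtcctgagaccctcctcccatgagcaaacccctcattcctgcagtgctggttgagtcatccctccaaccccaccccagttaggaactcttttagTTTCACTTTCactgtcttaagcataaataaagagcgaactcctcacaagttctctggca

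Gbp3: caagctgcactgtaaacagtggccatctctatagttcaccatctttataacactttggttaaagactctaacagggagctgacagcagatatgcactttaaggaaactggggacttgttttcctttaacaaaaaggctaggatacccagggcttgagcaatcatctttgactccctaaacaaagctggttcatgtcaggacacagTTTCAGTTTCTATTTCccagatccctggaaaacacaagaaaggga

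Gbp5: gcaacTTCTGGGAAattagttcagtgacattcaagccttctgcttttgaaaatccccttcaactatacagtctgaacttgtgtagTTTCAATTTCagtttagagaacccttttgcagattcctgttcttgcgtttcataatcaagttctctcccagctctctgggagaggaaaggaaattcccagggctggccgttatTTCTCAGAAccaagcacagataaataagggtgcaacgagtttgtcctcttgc

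Gbp7: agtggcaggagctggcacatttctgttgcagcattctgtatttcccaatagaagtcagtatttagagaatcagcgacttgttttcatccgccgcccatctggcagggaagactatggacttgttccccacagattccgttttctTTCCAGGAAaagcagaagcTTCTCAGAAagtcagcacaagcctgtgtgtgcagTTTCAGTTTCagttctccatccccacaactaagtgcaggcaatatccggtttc

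Each of these 4 windows held an ISRE core, beginning 59 bases before the start in Gbp2, 45 and 39 in Gbp3, 165 in Gbp5 and 53 in Gbp7. Over all 32851 RefSeq promoter windows of the same length, 2.98% held one. Gbp5 had GAS cores beginning 245 and 52 bases before the start and Gbp7 had them at 106 and 87 bases, against 7.02% of all windows with at least 1. A second window listed for Gbp3, at chr3:142560106-142560355, held neither core. These matches describe letters and not binding.

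**Figure D1:**
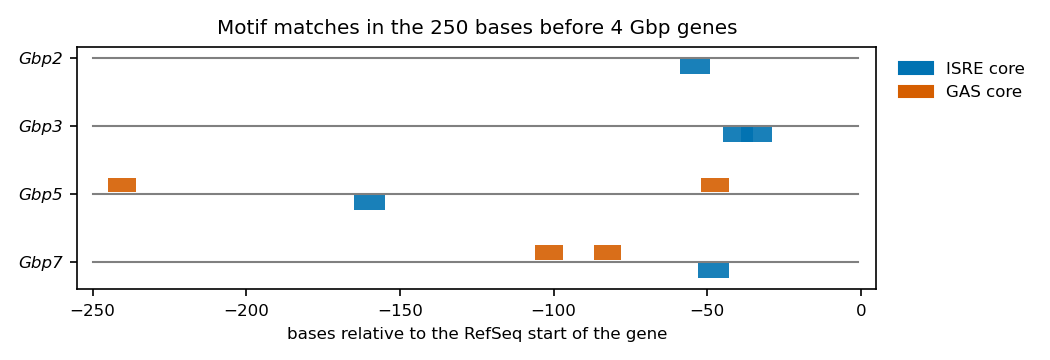
Positions of ISRE core matches (blue, below the line) and GAS core matches (orange, above the line) in the 250 bases before the RefSeq start of Gbp2, Gbp3, Gbp5 and Gbp7. The x axis is bases relative to the start, and each line is a gene; the ISRE cores of Gbp2, Gbp3 and Gbp7 lie within 59 bases of the start and that of Gbp5 begins 165 bases before it.

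Expression is given in FPKM, fragment counts scaled to gene length and library size, so levels of different genes can be compared per length. The libraries held 26543345 to 73732243 assigned reads, as recovered from the steps of the FPKM values, and 12860 to 13892 genes at 1 FPKM or more. Differences are on the scale of log2(FPKM + 1), which understates the change of genes with low values such as Gbp5. They were tested with limma on 14538 genes that reached 1 FPKM in at least 3 libraries, and p-values were adjusted by the Benjamini-Hochberg method over all of them and called under 0.05. Of the 8 members 7 entered the test. Gbp5 passed the filter only through CDP-cDC2 replicates 1 and 3 and M-cDC2 replicate 2, the libraries where it was highest, and Gbp6 did not pass. Whether the 3 libraries of a group are from different animals is not stated in the labels, so the spread behind the p-values may be technical. Nor do the labels say if 1 mouse gave both an L-cDC2 and an M-cDC2 library. In bulk RNA, fewer cells of a type and less RNA per cell cannot be told apart.

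Gbp8 was the most abundant member in all 12 libraries, at 11.3 to 29.9 FPKM, and did not overlap with the next member in any group. Gbp6 was the lowest in all 12, at 0.0693 to 0.377 FPKM, and Gbp5 came above it, at 0.244 to 1.65 FPKM. Gbp2 and Gbp9 held the places after Gbp8 in every library. Their order depended on the group: Gbp2 averaged above Gbp9 in CDP-cDC2, with overlapping libraries, and below it in the other 3 groups, without overlap in L-cDC2 alone. Gbp3, Gbp4 and Gbp7 shared the middle places and overlapped with at least 1 neighbour in every group. Gbp4 led these 3 in L-cDC2 and M-cDC2 and averaged below Gbp3 and Gbp7 in CLP-cDC2 and CDP-cDC2.

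The summed level of the 8 members was 33.2, 29.4 and 33.8 FPKM in CLP-cDC2, 53.6, 58.0 and 55.8 FPKM in CDP-cDC2, 54.2, 45.0 and 49.6 FPKM in L-cDC2, and 49.98, 49.1 and 36.4 FPKM in M-cDC2. Every CLP-cDC2 library lay below every other library, and the nearest was M-cDC2 replicate 3. Gbp8 made up 41.5% ± 6.98 of the sum in CLP-cDC2, 35.9% ± 4.48 in CDP-cDC2, 52.8% ± 4.74 in L-cDC2 and 52.7% ± 3.31 in M-cDC2 (SD, n = 3 each). Gbp2 made up 15.9% ± 4.56 in CLP-cDC2, 21.7% ± 4.63 in CDP-cDC2, 11.2% ± 0.461 in L-cDC2 and 12.5% ± 1.36 in M-cDC2 (SD, n = 3 each). The chromosome 5 genes carried most of the sum in each group, as the bars of summed FPKM show.

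**Figure D2:**
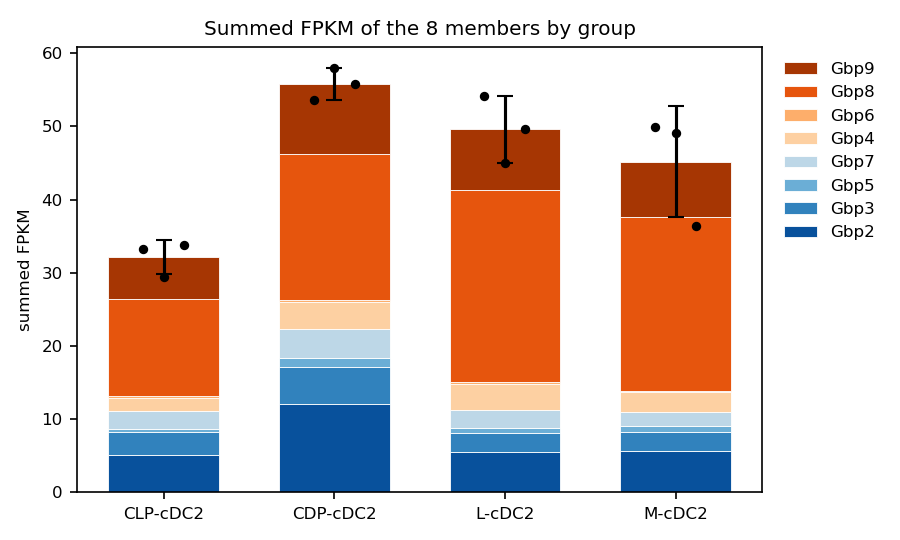
Summed FPKM (y axis) of the 8 members in each group, with the mean of each gene stacked, chromosome 3 members in blue and chromosome 5 members in orange. Points are the sums of the 3 libraries and bars are the SD of the sum; the CLP-cDC2 sums lie between 29.4 and 33.8, below all others.

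In the transfer system Gbp2, Gbp4 and Gbp5 were lower in CLP-cDC2 than in CDP-cDC2, 3 of the 7 tested members. Gbp5 entered the test through libraries where it was highest, CDP-cDC2 replicates 1 and 3 among them. Its place in the counts of this contrast therefore depends partly on the filter. Gbp3, Gbp7, Gbp8 and Gbp9 did not pass, and 0 members rose. Across all genes tested, 6.12% were called lower in CLP-cDC2, 7.02% higher and 13.1% in either direction. All 7 differences were negative, with a median log2 difference of -0.58, against a median of -0.01 over all genes. Of the 7 tested members, 4 had all CLP-cDC2 libraries below all CDP-cDC2 libraries, against 13% of all genes lower, 16.7% higher and 29.7% in either direction.

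Gbp2 coats bacteria and parasite vacuoles in mouse cells and is the most studied member of the chromosome 3 cluster. It had 6.78, 3.32 and 5.36 FPKM in CLP-cDC2, against 13.9, 9.71 and 12.5 FPKM in CDP-cDC2. The CDP-cDC2 libraries were the highest 3 of all 12 and did not overlap with any other group. The log2 difference was -1.11 ± 0.22 (SE, limma adjusted p = 0.0068), and the CLP-cDC2 mean was 0.428 of the CDP-cDC2 mean. This call held in each of the 25 alternative settings, with adjusted p from 0.00287 to 0.0413.

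Gbp5 promotes assembly of the NLRP3 inflammasome in mouse macrophages. It had 0.244, 0.400 and 0.330 FPKM in CLP-cDC2, against 1.65, 0.774 and 1.38 FPKM in CDP-cDC2. All CLP-cDC2 libraries lay below all libraries of every other group, and the CDP-cDC2 libraries spread over a wide range. The log2 difference was -0.76 ± 0.19 (SE, limma adjusted p = 0.0206), and the ratio of the means, 0.256, was the smallest of the members. The call was lost without CLP-cDC2 replicate 1 (adjusted p = 0.0634), CLP-cDC2 replicate 2 (0.0502), CDP-cDC2 replicate 1 (0.0608) or CDP-cDC2 replicate 3 (0.0619). It was also lost with no filter (0.0673), quantile normalization (0.0757), only these 2 groups in the fit (0.0702), array weights (0.0781) and without the replicates 3 of CDP-cDC2 and M-cDC2 together (0.0643).

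Gbp4, which in mice restrains virus-induced type I interferon by acting on Irf7, had 1.55, 1.39 and 2.39 FPKM in CLP-cDC2, against 2.69, 4.39 and 4.14 FPKM in CDP-cDC2. The groups did not overlap, though CLP-cDC2 replicate 3 came close to CDP-cDC2 replicate 1. The log2 difference was -0.77 ± 0.20 (SE, limma adjusted p = 0.0261), and the ratio of the means was 0.475. The call was lost without CLP-cDC2 replicate 1 (adjusted p = 0.0786), CLP-cDC2 replicate 2 (0.105), CDP-cDC2 replicate 2 (0.0793) or CDP-cDC2 replicate 3 (0.0769). It was also lost with no filter (0.0848), only these 2 groups in the fit (0.0936), a replicate block (0.0513) and without the replicates 3 of CDP-cDC2 and M-cDC2 together (0.0684).

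Gbp8 had 11.3, 14.1 and 14.4 FPKM in CLP-cDC2, against 20.02, 22.9 and 17.2 FPKM in CDP-cDC2. These groups did not overlap, yet the log2 difference of -0.56 ± 0.17 (SE) missed the threshold by a narrow margin (limma adjusted p = 0.0504). It passed without CDP-cDC2 replicate 3 (adjusted p = 0.0465), L-cDC2 replicate 2 (0.0438) or M-cDC2 replicate 3 (0.0400). It also passed in 6 other settings, with adjusted p from 0.00755 with array weights to 0.0497 with a pseudocount of 0.1.

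Gbp9, which gathers at Toxoplasma vacuoles in mouse cells, had 4.94, 6.52 and 5.89 FPKM in CLP-cDC2, against 5.87, 12.9 and 9.77 FPKM in CDP-cDC2. CDP-cDC2 replicate 1 lay within the CLP-cDC2 range, and the log2 difference was -0.58 ± 0.25 (SE, limma adjusted p = 0.138). Without that library the difference was -0.86 and was called (adjusted p = 0.0247), as it was with array weights (-0.81, 0.0345). Gbp3 had 4.33, 2.19 and 2.96 FPKM in CLP-cDC2, against 5.72, 3.87 and 5.52 FPKM in CDP-cDC2, with a difference of -0.56 ± 0.26 (SE, limma adjusted p = 0.18). Here CLP-cDC2 replicate 1 exceeded CDP-cDC2 replicate 2, so the groups overlapped.

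Gbp7, which brings NADPH oxidase subunits to bacterial compartments in mouse macrophages, had 3.91, 1.39 and 2.35 FPKM in CLP-cDC2, against 3.48, 3.19 and 5.05 FPKM in CDP-cDC2. The groups overlapped, and the difference was -0.51 ± 0.25 (SE, limma adjusted p = 0.194). Gbp6 had 0.179, 0.161 and 0.102 FPKM in CLP-cDC2, against 0.290, 0.219 and 0.153 FPKM in CDP-cDC2, and was not tested. CLP-cDC2 replicate 1 was the library with the highest Gbp3 and Gbp7 of its group and the lowest Gbp8 and Gbp9.

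**Figure D3:**
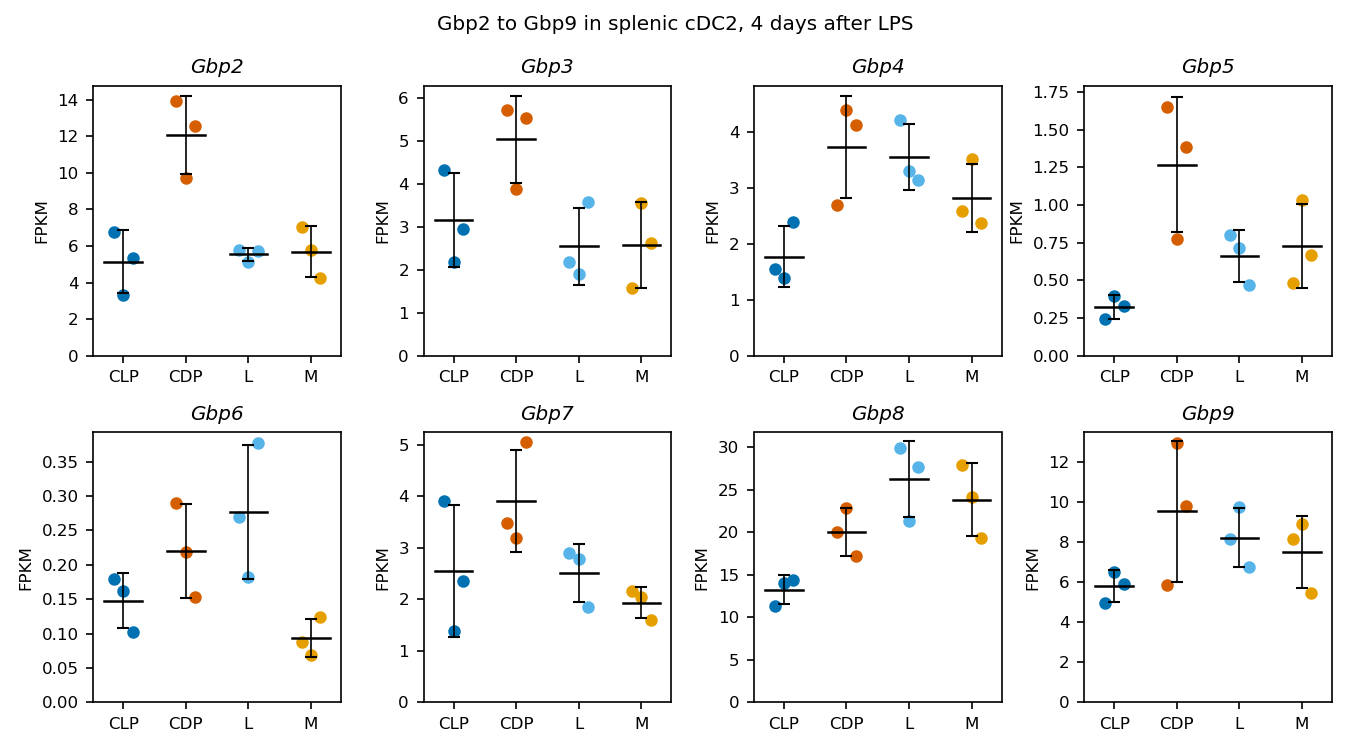
FPKM (y axis, each panel with its own scale from 0) of the 8 members in the 3 libraries of CLP-cDC2, CDP-cDC2, L-cDC2 and M-cDC2. Points are libraries, the horizontal line is the mean and the bar is the SD; the 3 CDP-cDC2 libraries of Gbp2 lie at 9.71 FPKM or more, above all others, and the 3 CLP-cDC2 libraries of Gbp8 lie at 14.4 FPKM or less, below all others.

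In the reporter mice 0 of the 7 tested members were called between L-cDC2 and M-cDC2, by limma or by voom on the recovered reads, and 0 had an unadjusted p under 0.05. Across all genes, 1.29% were called higher in L-cDC2, 0.44% lower and 1.73% in either direction. Groups did not overlap for 0 of the 7 tested members, against 12.7% of all genes higher, 6.67% lower and 19.4% in either direction. The log2 differences ran between -0.05 and 0.26, with standard errors between 0.17 and 0.26, a median of 0.13 and adjusted p of 0.766 or more. The median over all genes was 0.04.

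Gbp2 had 5.78, 5.12 and 5.72 FPKM in L-cDC2, against 7.03, 5.78 and 4.25 FPKM in M-cDC2, with a difference of -0.01 ± 0.22 (SE). The L-cDC2 libraries lay inside the M-cDC2 range. Gbp8 had 29.9, 21.3 and 27.7 FPKM in L-cDC2, against 27.9, 24.2 and 19.3 FPKM in M-cDC2, with a difference of 0.14 ± 0.17 (SE). Gbp4 had the greatest difference, 0.26 ± 0.20 (SE), with 4.22, 3.30 and 3.14 FPKM in L-cDC2 and 2.59, 3.51 and 2.37 FPKM in M-cDC2. Both genes overlapped between the groups.

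Gbp5 had 0.803, 0.718 and 0.472 FPKM in L-cDC2, against 0.481, 1.03 and 0.670 FPKM in M-cDC2. Gbp9 had 8.15, 9.73 and 6.77 FPKM in L-cDC2, against 8.13, 8.87 and 5.45 FPKM in M-cDC2. Both sets of libraries were interleaved. Gbp3 had 2.18, 1.90 and 3.57 FPKM in L-cDC2, against 1.57, 3.57 and 2.63 FPKM in M-cDC2, and Gbp7 had 2.90, 2.78 and 1.86 FPKM in L-cDC2, against 2.16, 2.05 and 1.60 FPKM in M-cDC2. These too overlapped.

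Gbp6 was the one member with no overlap between the reporter groups. It had 0.270, 0.182 and 0.377 FPKM in L-cDC2, against 0.0875, 0.0693 and 0.124 FPKM in M-cDC2, and the ratio of the means was 2.95. Gm43302, with which it shares exons, had 0.229, 0.167 and 0.340 FPKM in L-cDC2, against 0.110, 0.0953 and 0.144 FPKM in M-cDC2, and did not overlap either. Of the 50-base stretches in Gbp6 transcripts, 70.7% occur in another gene, mostly Gm43302 or Gbp10, so the source of its reads is uncertain. Gbp6 was below the filter and has no test.

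The transfer contrast was set against the reporter contrast as a difference of the 2 log2 differences, CLP-cDC2 minus CDP-cDC2 less L-cDC2 minus M-cDC2. All 7 values were negative, with a median of -0.71 against -0.05 over all genes, and 0 members were called by limma, where 3.61% of all genes were called lower, 2.38% higher and 5.99% in either direction. An unadjusted p under 0.05 was reached by 5 of the 7, and voom on the recovered reads called 1. Gbp4 came nearest with -1.03 ± 0.28 (SE, limma adjusted p = 0.0523) and Gbp2 next with -1.10 ± 0.31 (SE, limma adjusted p = 0.056). Gbp4 passed without CLP-cDC2 replicate 3 (adjusted p = 0.0389) or CDP-cDC2 replicate 1 (0.0248), and Gbp2 without CLP-cDC2 replicate 1 (0.0423). So at this threshold the difference in the transfer system was not shown to be unlike that in the reporter mice for any member.

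The transfer and reporter groups were also set against each other. These contrasts share their samples with those above, so values are given side by side. They also differ in mouse line and transfer procedure, which cannot be told apart from the cells' source. Gbp8 and Gbp4, both on chromosome 5, were lower in CLP-cDC2 than in L-cDC2, 2 of the 7 tested members, where 6.32% of all genes were called lower, 4.29% higher and 10.6% in either direction. Of the 50-base stretches in their transcripts, 18.1% for Gbp8 and 7.78% for Gbp4 occur in another gene, including each other. Their recovered reads were whole in 0 of the 12 libraries, so their counts may be partly shared. This limit also bears on other members. Reads were whole in 0 libraries for Gbp6 and Gbp9, 2 for Gbp7, 3 for Gbp3, 5 for Gbp2 and 7 for Gbp5. Gbp2 on chromosome 3 was higher in CDP-cDC2 than in M-cDC2, 1 of the 7, where 1.62% of all genes were called higher, 0.956% lower and 2.58% in either direction.

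The Gbp8 libraries of CLP-cDC2, at 11.3, 14.1 and 14.4 FPKM, lay well below those of L-cDC2, at 29.9, 21.3 and 27.7 FPKM. The log2 difference was -0.93 ± 0.17 (SE, limma adjusted p = 0.0054), and the ratio of the means was 0.504. This call held in each of the 25 alternative settings, with adjusted p from 0.000537 to 0.0273. For Gbp4 the difference was -0.72 ± 0.20 (SE, limma adjusted p = 0.039), with 1.55, 1.39 and 2.39 FPKM in CLP-cDC2 and 4.22, 3.30 and 3.14 FPKM in L-cDC2. The groups did not overlap, and the call was lost without any 1 of CLP-cDC2 replicates 1 and 2, L-cDC2 replicates 1, 2 and 3 and M-cDC2 replicate 1 (adjusted p from 0.0536 to 0.126).

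In CDP-cDC2 the Gbp2 libraries, at 13.9, 9.71 and 12.5 FPKM, all exceeded those of M-cDC2, at 7.03, 5.78 and 4.25 FPKM. The log2 difference was 0.97 ± 0.22 (SE, limma adjusted p = 0.0407), with a ratio of the means of 2.12. The call was lost when any 1 of CDP-cDC2 replicates 1 and 3, CLP-cDC2 replicate 3, the 3 L-cDC2 libraries or the 3 M-cDC2 libraries was left out (adjusted p from 0.0541 to 0.152).

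Read by cluster, a grouping chosen after the values were seen and given without a test, the members did not move as one block. In CDP-cDC2 over M-cDC2 the ratios of means of the chromosome 3 members were 2.12 for Gbp2, 1.95 for Gbp3, 1.74 for Gbp5 and 2.02 for Gbp7. Those of the chromosome 5 members were 1.32 for Gbp4, 2.35 for Gbp6, 0.841 for Gbp8 and 1.27 for Gbp9. In CLP-cDC2 over L-cDC2 the chromosome 5 ratios were 0.500 for Gbp4, 0.534 for Gbp6, 0.504 for Gbp8 and 0.704 for Gbp9, and the chromosome 3 ratios were 0.930 for Gbp2, 1.24 for Gbp3, 0.489 for Gbp5 and 1.02 for Gbp7. Gbp6 was the exception to the order of the clusters in the first case and Gbp5 in the second. The chromosome 5 members share sequence with each other, so they are not fully independent entries. On chromosome 3, 12.7% of the 50-base stretches in Gbp7 transcripts occur in another gene, mostly Gm43802. Gm43802 had 1.33, 0.910 and 3.37 FPKM in CDP-cDC2, against 0.470, 0.430 and 0.340 FPKM in M-cDC2. Of the 7 tested members, 3 did not overlap between CDP-cDC2 and M-cDC2 and were higher in CDP-cDC2, all on chromosome 3, against 14.5% of all genes higher, 9.94% lower and 24.4% in either direction. Between CLP-cDC2 and L-cDC2, 4 did not overlap and were lower in CLP-cDC2, of which 3 lie on chromosome 5, against 17.9% of all genes lower, 17.8% higher and 35.8% in either direction.

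**Figure D4:**
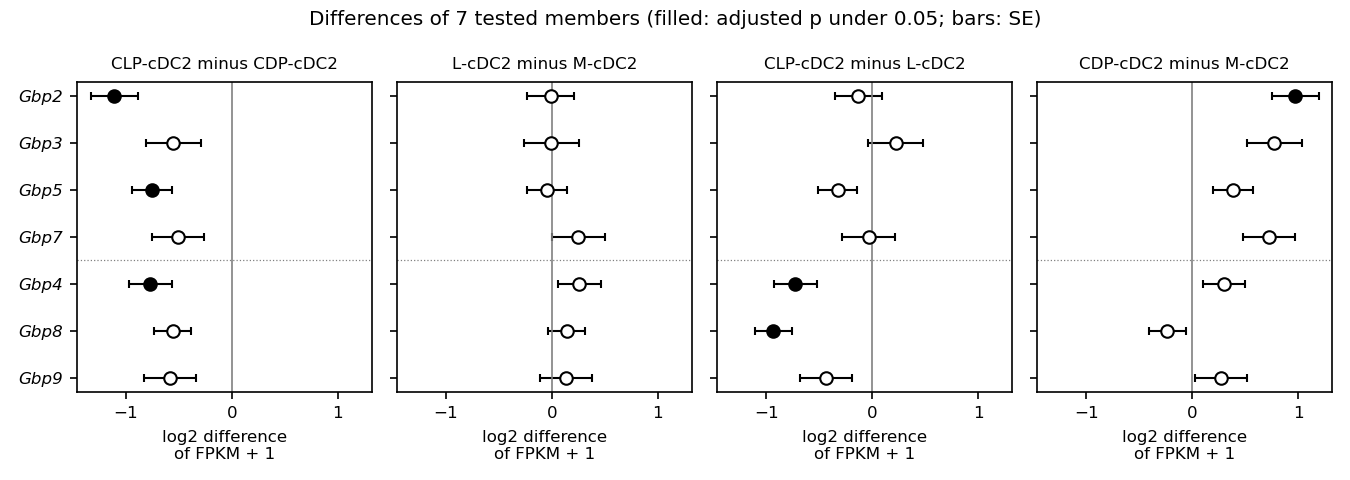
Log2 differences of FPKM + 1 (x axis) of the 7 tested members in 4 contrasts, with chromosome 3 members above the dotted line and chromosome 5 members below it. Points are limma estimates, bars are the SE and filled points have an adjusted p under 0.05; all 7 points of CLP-cDC2 minus CDP-cDC2 lie left of 0, between -1.11 and -0.51.

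The other family members of the table, Gbp2b, Gbp10 and Gbp11, were too low to be tested, 0 of 3. Gbp10 had 0.116, 0.129 and 0.115 FPKM in CLP-cDC2, against 0.347, 0.269 and 0.219 FPKM in CDP-cDC2, 0.307, 0.307 and 0.313 FPKM in L-cDC2 and 0.207, 0.228 and 0.316 FPKM in M-cDC2. Gbp11 had 0.0594, 0.0712 and 0.128 FPKM in CLP-cDC2, against 0.239, 0.235 and 0.145 FPKM in CDP-cDC2, 0.217, 0.270 and 0.220 FPKM in L-cDC2 and 0.203, 0.149 and 0.215 FPKM in M-cDC2. Both genes were lowest in all 3 CLP-cDC2 libraries, and both share sequence with the chromosome 5 members. Gbp2b reached 0.219 FPKM in CDP-cDC2 replicate 3 and 0.150 FPKM in M-cDC2 replicate 3, and it was at 0.0173 FPKM or less in the CLP-cDC2 and L-cDC2 libraries.

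The immunity-related GTPases are a second family that interferon-gamma induces and that works with the guanylate-binding proteins at vacuoles. Their list here also held Gvin1, Gvin2 and Gvin3, which belong to a separate family, the very large inducible GTPases. In CLP-cDC2 against CDP-cDC2, 0 of the 11 tested were called by limma or by voom, 4 had an unadjusted p under 0.05, and their median log2 difference was -0.09, against -0.58 for the 7 guanylate-binding proteins. By limma, 13.1% of all genes were called in that contrast in either direction. Gm5431 had the lowest value of the 11, -0.92 ± 0.32 (SE, limma adjusted p = 0.0772). Irgm2, which has a guarding role at the cell's own membranes, had the second lowest, -0.56 ± 0.21 (SE, limma adjusted p = 0.0979). Gm5431, Irgm2, Gvin1 and Gvin2 were lower in CLP-cDC2 without overlap, where 13% of all genes were. Gvin1 and Gvin2 had close values in every library, so they may not be independent entries. In CLP-cDC2 they had 2.69, 1.93 and 2.49 FPKM and 2.47, 1.81 and 2.34 FPKM. Of the 11 differences, 8 were negative and 3 positive. Igtp had 29.2, 25.9 and 34.0 FPKM in CLP-cDC2, against 36.0, 35.1 and 24.4 FPKM in CDP-cDC2, and overlapped. Iigp1 was the one gene of the list called by limma in any of the 5 contrasts. It had 1.44, 0.482 and 1.73 FPKM in CLP-cDC2, against 0.192, 0.401 and 0.314 FPKM in L-cDC2, a difference of 0.72 ± 0.21 (SE, limma adjusted p = 0.048) in the direction opposite to Gbp8 and Gbp4. It was called in CLP-cDC2 minus L-cDC2 without CLP-cDC2 replicate 2 and without CDP-cDC2 replicate 3, and lost without any 1 of the other 10 libraries (adjusted p from 0.0559 to 0.15).

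The genes that carry the interferon-gamma signal were expressed in all groups. Ifngr2, the signalling subunit of the receptor, fell in CLP-cDC2, with 47.7, 46.2 and 41.5 FPKM against 61.2, 62.9 and 72.7 FPKM in CDP-cDC2, a difference of -0.53 ± 0.10 (SE, limma adjusted p = 0.00635). The call was lost with only these 2 groups in the fit (limma adjusted p = 0.0646). Ifngr2 was the only 1 of the 9 genes of the list called in this contrast, and the list's median was -0.47. Of all genes, 6.12% were called lower and 13.1% in either direction. Ifngr1, the ligand-binding subunit, had 192.0, 229.4 and 205.0 FPKM in CLP-cDC2, against 204.4, 266.7 and 216.8 FPKM in CDP-cDC2, and the groups overlapped (limma adjusted p = 0.514). Irf1, a transcription factor that drives guanylate-binding protein genes, had 55.8, 52.8 and 47.2 FPKM in CLP-cDC2, against 68.6, 73.2 and 54.1 FPKM in CDP-cDC2, with a difference of -0.32 ± 0.13 (SE, limma adjusted p = 0.115). Irf1 overlapped between the groups, and it passed without CDP-cDC2 replicate 3 (adjusted p = 0.0301).

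In L-cDC2 against M-cDC2, 0 of these 9 signalling genes were called by limma or by voom, and 1 had an unadjusted p under 0.05. By limma, 1.73% of all genes were called there in either direction. In CDP-cDC2 against M-cDC2, 1.62% of all genes were called higher. Jak2 rose there by 1.05 ± 0.23 (SE, limma adjusted p = 0.0366), the 1 call of the list. That call was lost without any 1 of the L-cDC2 and M-cDC2 libraries, CDP-cDC2 replicate 1 or CDP-cDC2 replicate 3 (adjusted p from 0.053 to 0.139).

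Other targets of interferon-gamma split in CLP-cDC2 against CDP-cDC2. Of 13 tested, 4 fell, namely the chemokines Cxcl9 (-1.04 ± 0.30 SE, limma adjusted p = 0.0411) and Cxcl10 (-0.92 ± 0.25, 0.0285), the class I regulator Nlrc5 (-0.84 ± 0.25, 0.0432) and the checkpoint ligand Cd274 (-0.76 ± 0.23, 0.0432). Of all genes, 6.12% were called lower and 13.1% in either direction. The list's median was 0.11, since immunoproteasome genes such as Psmb8 and Psmb9 had small positive values of 0.19 and 0.24 that did not pass. Cd274 was also lower in CLP-cDC2 than in L-cDC2, by -0.83 ± 0.23 (SE, limma adjusted p = 0.0347). Cxcl10 lost its call without CLP-cDC2 replicate 2, CLP-cDC2 replicate 3 or CDP-cDC2 replicate 1 (adjusted p from 0.0691 to 0.102). Nlrc5 lost it without 8 of the 12 libraries, up to 0.17 without CLP-cDC2 replicate 2, and Cxcl9 without 9, up to 0.156 without the same library. Cd274 lost it without 9 libraries against CDP-cDC2 and without 6 against L-cDC2, up to 0.148 without CLP-cDC2 replicate 2 and up to 0.113 without CLP-cDC2 replicate 1.

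In CLP-cDC2 against CDP-cDC2, 6.12% of all genes were called lower and 13.1% in either direction. Of 20 tested type I interferon-stimulated genes, 6 fell in that contrast, and the median was -0.46. The largest were Ifit3b (-1.01 ± 0.24 SE, limma adjusted p = 0.0181), Ifit1 (-0.98 ± 0.21, 0.00958) and Ifit3 (-0.88 ± 0.21, 0.0172), antiviral proteins with tetratricopeptide repeats. The others were Rsad2, Ddx58 and Irf7. Ifit1 held in all 25 alternative settings, and the other 5 each lost their call without CLP-cDC2 replicate 1 and without 1 to 3 other libraries (adjusted p of 0.113 at most). In L-cDC2 against M-cDC2, 0 of the 20 were called by limma or by voom, 3 had an unadjusted p under 0.05, and the median was -0.01. By limma, 1.73% of all genes were called there in either direction. Bst2, also 1 of the plasmacytoid dendritic cell markers summed below, rose in CLP-cDC2 against L-cDC2. It was 1 of the 20, where 4.29% of all genes were called higher. Rtp4 and Oasl2 rose in CDP-cDC2 against M-cDC2, 2 of the 20, where 1.62% of all genes were called higher. The calls of Bst2, Rtp4 and Oasl2 were lost without 5, 7 and 11 of the 12 libraries.

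**Figure D5:**
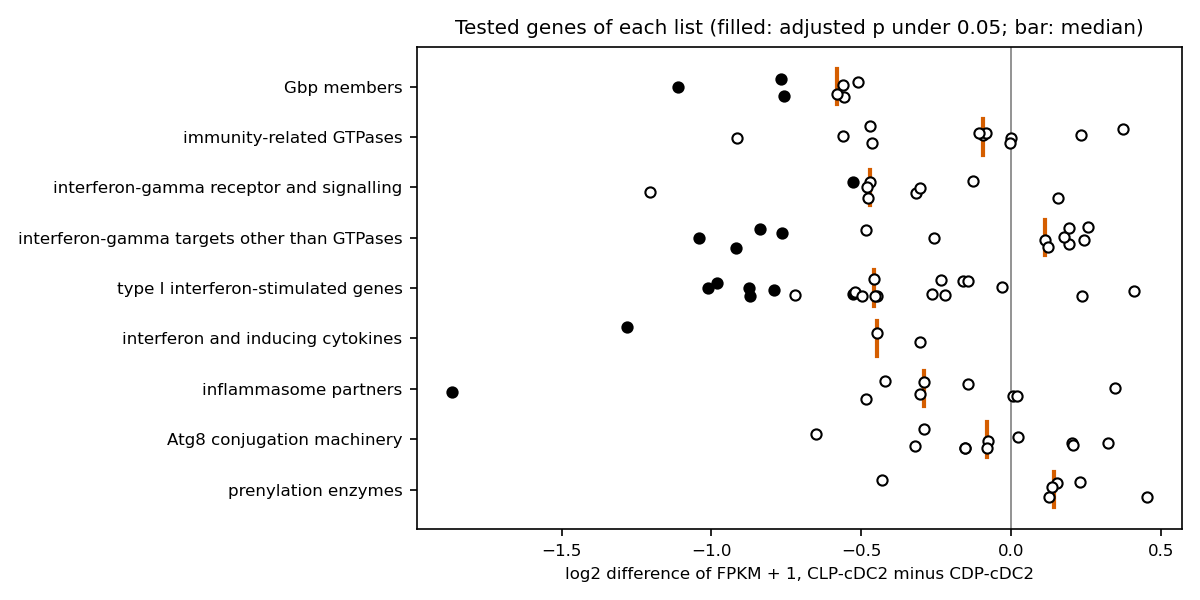
Log2 differences of FPKM + 1 in CLP-cDC2 minus CDP-cDC2 (x axis) for the tested genes of each list (rows). Points are genes, filled where the adjusted p is under 0.05, and the orange bar is the list's median. The 7 guanylate-binding proteins have a median of -0.58. The 11 genes of the immunity-related GTPase list, Gvin genes included, have one of -0.09.

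Among partners of guanylate-binding proteins, the inflammasome product Il1b fell in CLP-cDC2, with 63.5, 56.2 and 59.5 FPKM against 207.2, 265.5 and 194.0 FPKM in CDP-cDC2 (-1.87 ± 0.14 SE, limma adjusted p = 1.42e-05). It also fell in L-cDC2, with 64.6, 57.4 and 72.3 FPKM against 109.6, 137.5 and 131.1 FPKM in M-cDC2 (-0.95 ± 0.14 SE, limma adjusted p = 0.00204), where no guanylate-binding protein was called. In each of these contrasts it was the 1 gene called of the 9 inflammasome partners, and Casp1, Aim2, Nlrp3 and Gsdmd were not. Of all genes, 6.12% were called lower in the first contrast and 0.44% in the second. Both Il1b calls held in all 25 alternative settings. Il18, a cytokine that induces interferon-gamma, was lower in CLP-cDC2 than in CDP-cDC2 by -1.28 ± 0.26 and than in L-cDC2 by -1.07 ± 0.26 (SE, limma adjusted p = 0.0077 and 0.0217). The first of these calls was lost with only the 2 groups compared in the fit (limma adjusted p = 0.0607). The second was lost without any 1 of the L-cDC2 libraries (adjusted p from 0.0567 to 0.0732) and with no filter. In CLP-cDC2 against CDP-cDC2, 0 of 11 genes of Atg8 conjugation and 0 of 6 prenylation genes were called by limma or by voom, and 3 and 1 had an unadjusted p under 0.05. By limma, 13.1% of all genes were called there in either direction. Gabarapl1, an Atg8 homologue, was higher in CLP-cDC2 than in L-cDC2 by 0.57 ± 0.15 (SE, limma adjusted p = 0.0297). This call was lost without any 1 of the L-cDC2 libraries, CLP-cDC2 replicate 1 or CLP-cDC2 replicate 2 (adjusted p from 0.0633 to 0.121).

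Transcripts of interferon-gamma itself were found in L-cDC2, where Ifng had 1.56, 0.873 and 2.09 FPKM. It was at 0, 0.0314 and 0 FPKM in M-cDC2, at 0, 0 and 0.0546 FPKM in CLP-cDC2 and at 0 in all 3 CDP-cDC2 libraries, where 3 reads would equal 0.0314 to 0.0873 FPKM over the 12 libraries. Ifng did not pass the filter. The levels of the guanylate-binding proteins in L-cDC2 were not called against M-cDC2, as given above.

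Markers of other cells moved with the groups. All 12 cDC2 markers were tested and none was at 0 in all libraries of a group. Their summed level was 7083 to 8780 FPKM in CLP-cDC2, 11130 to 12040 in CDP-cDC2, 8088 to 8689 in L-cDC2 and 9943 to 11620 in M-cDC2. H2-Ab1 alone carried most of each sum, with means of 7560, 10823, 7758 and 9938 FPKM in that order. In CLP-cDC2 against CDP-cDC2 8 of the 12 were called lower, led by Cd209a, Cd4 and Sirpa, where 6.12% of all genes were. In L-cDC2 minus M-cDC2 9 of the 12 differences were positive and 3 negative, and Cd209a was called lower. The 9 monocyte and macrophage markers summed to 71.5 to 140.4 FPKM in CLP-cDC2, 490.2 to 617.1 in CDP-cDC2, 175.9 to 182.3 in L-cDC2 and 346.3 to 376.6 in M-cDC2. Of 7 tested, 5 were lower in CLP-cDC2 than in CDP-cDC2, led by Lyz2, and in L-cDC2 against M-cDC2 3 were lower. Of all genes, 6.12% and 0.44% were called lower in these contrasts. The 8 cDC1 markers summed to 191.5 to 244.2 FPKM in CLP-cDC2, 110.6 to 174.1 in CDP-cDC2, 127.9 to 153.7 in L-cDC2 and 241.5 to 264.4 in M-cDC2. The 7 plasmacytoid markers summed to 140.8 to 274.8 FPKM in CLP-cDC2, 54.0 to 116.3 in CDP-cDC2, 98.1 to 113.3 in L-cDC2 and 75.8 to 90.6 in M-cDC2. In CLP-cDC2 against L-cDC2, 6 of the 12 cDC2 markers were called lower, led by Cd209a, Esam and Cd4. Of the 8 cDC1 markers 5 were called higher there. Of all genes, 6.32% were called lower in that contrast and 4.29% higher. The part of these cells in the lower Gbp2, Gbp4 and Gbp5 of CLP-cDC2 against CDP-cDC2 was not tested. Nor was it tested for the lower Gbp8 and Gbp4 against L-cDC2, or for the higher Gbp2 of CDP-cDC2 against M-cDC2.

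Lymphocyte markers stood out in L-cDC2. The 8 NK cell markers summed to 7.38 to 16.8 FPKM in CLP-cDC2, 5.66 to 17.4 in CDP-cDC2, 195.6 to 290.8 in L-cDC2 and 8.19 to 9.97 in M-cDC2, and 6 of 7 tested were higher in L-cDC2 than in M-cDC2, led by Gzma. Of all genes, 1.29% were called higher in L-cDC2. The 8 T cell markers summed to 7.68 to 16.4 FPKM in CLP-cDC2, 2.21 to 5.37 in CDP-cDC2, 35.3 to 49.7 in L-cDC2 and 1.61 to 3.59 in M-cDC2. Lck gave 11.1, 5.03 and 3.92 FPKM of the CLP-cDC2 sums. Cd3e, Cd3d and Cd3g did not pass the filter, and Cd3e had 0.0342, 0.0139 and 0.150 FPKM in L-cDC2. Of 5 tested, 4 were higher in L-cDC2 than in M-cDC2, namely Trbc2, Cd2, Lck and Trbc1. The 8 B cell markers summed to 87.3 to 504.4 FPKM in CLP-cDC2, 55.7 to 92.8 in CDP-cDC2, 952.2 to 1523 in L-cDC2 and 55.1 to 69.2 in M-cDC2. Igkc alone gave 1369.8, 893.7 and 805.3 FPKM in L-cDC2. In CLP-cDC2 it had 20.1, 429.2 and 28.5 FPKM, so replicate 2 set the top of that range. Of 7 tested, 6 were higher in L-cDC2 than in M-cDC2. In CLP-cDC2 against CDP-cDC2, 4 of 7 B cell markers, led by Fcer2a, and 2 of 5 T cell markers, Lck and Trbc1, were called higher. Of all genes, 7.02% were. These lymphocyte markers accompany the Ifng values of L-cDC2, and their part in the guanylate-binding protein levels was not tested in any group.

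By the root mean square distance of standardised log2(FPKM + 1) over the 12 libraries, the 8 protein-coding genes whose profiles lay nearest to the mean profile of the 7 tested members were Foxo1, Il21r, Lamp1, Gsr, Panx1, Yaf2, Asap1 and Lilr4b. Their distances were 0.408 to 0.451, against a median of 1.13 over 10106 genes. The members' own distances ran between 0.535 for Gbp2 and 0.896 for Gbp8. Foxo1, a forkhead transcription factor, averaged 1.79 ± 0.395 FPKM in CLP-cDC2, 4.49 ± 0.368 in CDP-cDC2, 2.55 ± 0.244 in L-cDC2 and 2.29 ± 0.402 in M-cDC2 (SD, n = 3 each). Il21r, the receptor of a T cell cytokine, averaged 61.6 ± 6.67 FPKM in CLP-cDC2, 99.5 ± 4.06 in CDP-cDC2, 83.6 ± 1.99 in L-cDC2 and 79.9 ± 2.65 in M-cDC2 (SD, n = 3 each). Likeness of profile is a description over these libraries, which share their groups.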

How the data were processed

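RNA-seq libraries of splenic cDC2 were made with SMART-Seq HT and Nextera XT, per the labels' protocols, and grouped by the labels. The authors deposited 1 table of FPKM for 55322 genes. Per the submitters' processing notes, the tools were STAR 2.7.9a, featureCounts 2.0.1, DESeq2 1.20.0, cutadapt 3.7, Trimmomatic 0.39 and Trim Galore 0.6.7, listed without roles. Whether counting used strand is not stated. Depth was recovered from steps of 0.01 read in the deposited FPKM, taking the commonest low value as 1 read; 44.9 to 53.4% of values above 0 were whole reads (tolerance 0.01 read), so counts were shared between genes and no count test was the main test. Floors of 3 reads cover counting error only.

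The 14538 genes that reached 1 FPKM in 3 or more libraries entered a two-sided limma 3.58.1 test with an eBayes trend, in R 4.3.3, on log2(FPKM + 1), fitting the 4 group means (8 residual degrees of freedom). Checks on simulated data were run before use. Alternatives were the pseudocount, the filter, scaling, weights, trend, gene type, voom, a replicate block and left-out libraries. Promoters came from RefSeq (GRCm38.p6). Named genes were the members, Ifng, Ifngr1, Ifngr2, Irf1, the other family members, up to 3 called genes per list, contrast and direction by largest difference, and the 8 genes with the nearest profile. Immunity-related GTPase, immunoproteasome and inflammasome genes named without a call were chosen after their values were seen. Members and lists were chosen with earlier results of these data known. 1 gene fixed by name is not reported here.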

Additional observations from a re-analysis of the deposited data

Results flagged for a closer look

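4 genes of the interferon and inflammasome lists differed between the transfer and reporter contrasts by a test of the difference itself, CLP-cDC2 minus CDP-cDC2 less L-cDC2 minus M-cDC2. They were 2 of 20 tested type I interferon-stimulated genes, 1 of 9 signalling genes and 1 of 9 inflammasome partners. In the immunity-related GTPase list 0 of 11 were called, and of the other interferon-gamma targets 0 of 13. The Atg8 conjugation and prenylation lists had 0 of 11 and 0 of 6. Of all genes, 3.61% were called lower in this test and 5.99% in either direction. Oas2, an antiviral oligoadenylate synthetase, had a difference of -1.51 ± 0.35 (SE, limma adjusted p = 0.029), and Ddx58, the RNA sensor RIG-I, had -1.27 ± 0.29 (SE, limma adjusted p = 0.0251). Il1b had -0.92 ± 0.20 (SE, limma adjusted p = 0.0212) and was lower in the first group of both contrasts. Ifngr2 had -0.55 ± 0.15 (SE, limma adjusted p = 0.0465), with 0.02 ± 0.10 (SE) in L-cDC2 minus M-cDC2. Left-out libraries ended these calls 8 times of 12 for Oas2 (up to 0.0816 without L-cDC2 replicate 2), 4 for Ddx58 (up to 0.0667 without L-cDC2 replicate 2), 2 for Il1b (L-cDC2 replicate 3 and CLP-cDC2 replicate 2, up to 0.0547) and 11 for Ifngr2 (all but CDP-cDC2 replicate 1, up to 0.106). No guanylate-binding protein was among them.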

How the results depend on the processing

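Gbp2 in CLP-cDC2 minus CDP-cDC2 and Gbp8 in CLP-cDC2 minus L-cDC2 kept their direction and call in all 25 alternatives, and all 7 tested members stayed negative in CLP-cDC2 minus CDP-cDC2 in all alternatives that tested them. The count of 3 members lower in CLP-cDC2 than in CDP-cDC2 was 1 with no filter on low values and 1 with only the 2 groups compared in the fit, and 1 to 4 with 1 library left out. It was 4 with a pseudocount of 0.1, median-ratio scaling, protein-coding genes only and array weights, and 2 with FPKM of at least 5, quantile normalization and without both replicates 3; Gbp8 was gained in 9 alternatives and Gbp9 in 2, and Gbp4 was lost in 8 and Gbp5 in 9. Against L-cDC2 the count of 2 was 1 with a pseudocount of 5, with no filter, with FPKM of at least 5 and with quantile normalization, and 1 to 2 with 1 library left out. The 1 member higher in CDP-cDC2 than in M-cDC2 became 0 with no filter, with only these 2 groups and without the replicates 3 of CDP-cDC2 and M-cDC2 together, and was 0 to 1 with 1 library left out. For the difference of the 2 contrasts the count of 0 became 1 with FPKM of at least 5, 3 with array weights, 2 with protein-coding genes only and 1 with voom, and was 0 to 1 with 1 library left out. Where the filter or the groups changed, fewer or more genes or libraries entered the fit. Otherwise the cause was not tested. For most other listed genes, losses are printed for left-out libraries alone, and many of their calls were also lost with no filter.

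Uncalled values near 0 turned round. For Gbp2, L-cDC2 minus M-cDC2 was 0.0098 with voom and -0.18 to 0.13 with 1 library left out; for Gbp3 it was 0.0703 with voom, 0.0215 without both replicates 3 and -0.23 to 0.19; for Gbp5 it was -0.15 to 0.0763; for Gbp9 it was -0.12 with array weights, -0.0554 without both replicates 3 and -0.0554 to 0.25. CLP-cDC2 minus L-cDC2 was -0.32 to 0.11 for Gbp2 with 1 library left out, and for Gbp7 it was 0.0462 with quantile normalization, 0.02 with array weights and -0.30 to 0.22 with 1 library left out.

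Deviations of same-numbered libraries of the groups compared had correlations between -0.435 and 0.282, and those of different-numbered libraries between -0.29 and 0.443. With 3 libraries a group these values cannot exclude pairing, and the labels do not settle it. The numbers were not taken as pairs in the main test. With a replicate block, 2 members were lower in CLP-cDC2 than in CDP-cDC2 (Gbp4 adjusted p = 0.0513) and 1 was lower in CLP-cDC2 than in L-cDC2 (Gbp4 adjusted p = 0.0683).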
